A study of Mus musculus with 394 samples.

Results

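The Cas scaffold genes *Bcar1*, *Nedd9* and *Efs* and the Tks scaffold genes *Sh3pxd2a* and *Sh3pxd2b* are 5 of the 48526 genes in the UMI count table and of the 55487 in the full-length count table. They were chosen by their IP over Input values, because members of both families stood out in immunoprecipitates (IPs) of striatum from mice that carry no tagged ribosome, so the bulk striatal IP over Input values and those of Cre- striatal synaptosomes are given here as descriptions, with no test. *Bcar1*, *Nedd9*, *Efs* and *Sh3pxd2a* fit that choice. *Sh3pxd2b* did not, since its striatal log2 fold change of IP over Input was 0.21 in Cre- mice and -0.13 in Cre+ mice.

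Cas proteins are docking scaffolds with an SH3 domain and a long substrate region of repeated tyrosine motifs. Src-family kinases, brought in by focal adhesion kinase, phosphorylate these motifs, and adaptors such as Crk then bind them and pass adhesion signals to Rac and the actin cytoskeleton. Tks proteins combine a phospholipid-binding PX domain with several SH3 domains, are Src substrates as well, and organize podosomes and invadopodia, the actin-rich protrusions that degrade extracellular matrix. In the brain both families are known from cell adhesion, migration and process outgrowth, and neither is specific to dopamine neurons.

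The series profiled midbrain dopamine (mDA) neurons of adult and developing mice in 394 samples. In RiboTag mice, Cre recombinase adds an HA epitope to the ribosomal protein eL22, and an anti-HA IP then recovers ribosomes with their mRNA, with a sample of the same lysate kept as Input. Cre+ mice (DAT IRES-Cre/wt;RiboTag+/-) express Cre from the dopamine transporter locus, so that tagged ribosomes come from mDA neurons. Cre- mice (DAT wt/wt;RiboTag+/-) carry the same floxed *Rpl22* allele without Cre and have no tagged ribosome. The midbrain was dissected into substantia nigra pars compacta (SNc), pars reticulata (SNr) and ventral tegmental area (VTA) at 10–14 months, with 6 IP and 6 Input libraries per region of Cre- mice and 4 and 4 of Cre+ mice. Synaptosomes are preparations of resealed synaptic elements, which the authors take as dendritic or postsynaptic for mDA ribosomes of the midbrain. They came from ventral midbrain and striatum at the same age, and bulk striatum from P0, P7, P14, P21, P31, P90 and 10–14 months. These libraries count unique molecular identifiers (UMIs) at mRNA 3′ ends. SNc, VTA and SNr of Cre+ mice aged 10–14 months were also sequenced as full-length libraries, with 3 IPs and 3 Inputs per region. Synaptosomes sorted at P90–150 complete the series, from DAT-Cre mice whose dopamine neurons received a Cre-dependent EGFP virus (DAT_EGFP) and from mice with VENUS-tagged VGLUT1 (VGLUT1_VENUS).

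Midbrain IP libraries held 17831 to 92936 UMIs and Inputs 3606 to 380689. Full-length IPs held 4018290 to 11363737 reads and Inputs 3059148 to 15762443. In the midbrain, 10 of 10 dopamine neuron markers were higher in Cre+ than in Cre- IPs (median log2 fold change 3.22), as the genotype labels state, while 9 of 10 oligodendrocyte, 9 of 10 astrocyte and 6 of 10 endothelial markers were lower. Levels are given as counts per 1000000 (CPM), a share of a library, and do not give the amount of RNA in an IP. The authors estimated IP yields by qRT-PCR, and found Cre- midbrain yields too low for full-length sequencing. A lower share in Cre+ than in Cre- IPs is therefore not a measure of less mRNA captured. In bulk tissue, fewer cells of a type and less RNA per cell cannot be told apart. The labels do not say which libraries came from separate mice, regions may share mice, and p-values then measure the spread between these libraries only.

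The 5 genes share protein families but not chromosomes. *Bcar1* (ENSMUSG00000031955) lies at chr8:111710474-111743809, *Nedd9* (ENSMUSG00000021365) at chr13:41309581-41487362, *Efs* (ENSMUSG00000022203) at chr14:54916535-54926126 and *Sh3pxd2a* (ENSMUSG00000053617) at chr19:47260174-47464401, all on the minus strand of GRCm38. *Sh3pxd2b* (ENSMUSG00000040711) lies at chr11:32347820-32428173 on the plus strand. Over aligned residues of the translated coding sequences, *Bcar1* and *Nedd9* were 48.2% identical, *Bcar1* and *Efs* 46.6%, and *Sh3pxd2a* and *Sh3pxd2b* 46.9%.

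One further feature that the choice of genes did not use is a run of 4 codons for tyrosine, aspartate, valine and proline, in that order, residues that also follow each other within the HA epitope that the antibody binds. The search read each gene's longest complete coding sequence in frame for TAC or TAT, GAC or GAT, GTN and CCN. Of 21501 mouse genes with a coding sequence, 41 (0.191%) held such a run. *Bcar1* held 7, *Nedd9* 3, *Efs* 3 and *Sh3pxd2a* 1, *Sh3pxd2b* held 0, and no gene outside the 5 held more than 1. *Cass4*, the remaining Cas family gene, held 1 but had too few counts to be tested in any experiment. Each run is shown with 9 bases of coding sequence on either side, because the runs recur in the substrate region of the Cas genes and occur in only one of the paired Sh3pxd2 genes. Capitals mark the 12 bases of the run, the coordinates are those of the capitals in GRCm38, and the sequence is written along the coding strand, which is the minus strand for all 4 genes.
Bcar1 codon 253, exon 3, chr8:111715654-111715665: caggacatcTATGATGTGCCCcctgttcga
Bcar1 codon 291, exon 4, chr8:111715325-111715336: ttggatgtgTATGACGTGCCCcctagtgtg
Bcar1 codon 310, exon 5, chr8:111714422-111714433: cattcggtgTATGATGTTCCTccttctgtg
Bcar1 codon 331, exon 5, chr8:111714359-111714370: gaggaaaccTATGATGTACCTcctgccttc
Bcar1 codon 366, exon 5, chr8:111714254-111714265: gaggatgtaTATGATGTGCCCccccctgct
Bcar1 codon 376, exon 5, chr8:111714224-111714235: cccgacctcTATGATGTGCCCcctggtttg
Bcar1 codon 391, exon 5, chr8:111714179-111714190: ggaacactgTATGACGTGCCTcgcgagcgc
Nedd9 codon 176, exon 3, chr13:41318465-41318476: aaggatgtcTACGATGTCCCTccttcccac
Nedd9 codon 316, exon 5, chr13:41316719-41316730: agtgatgccTATGATGTCCCCcggggagtt
Nedd9 codon 344, exon 5, chr13:41316635-41316646: gacggtgtcTACGATGTCCCTctgcacaac
Efs codon 148, exon 4, chr14:54920400-54920411: gcagaggtcTATGATGTGCCTcccaacatc
Efs codon 188, exon 4, chr14:54920280-54920291: gaagcgcccTACGATGTGCCTctggcctta
Efs codon 253, exon 4, chr14:54920085-54920096: gaaggcattTACGATGTGCCTctgctgggg
Sh3pxd2a codon 557, exon 15, chr19:47268682-47268693: gaacccgagTATGACGTCCCTgcctttggc

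All 14 runs lie in coding exons, numbered here among the coding exons of the transcript, and the flanks of Bcar1 codon 310 and Efs codon 148 continue across an exon junction. The part of these residues in any IP value was not tested.

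Without any tagged ribosome, anti-HA IPs of Cre- midbrain held *Bcar1* at high levels. In the SNc its level was 2878 CPM in the lowest IP, 6507 in the median and 8863 in the highest, against 23.5, 59.4 and 194 in the Inputs. The SNr IPs ran from 1570 through a median of 5584 to 14484 CPM, against Inputs of 7.45, 37.9 and 62.6. In the VTA the IPs held 2704, 5540 and 11990 CPM, against Inputs of 65.1, 99.7 and 594. Every IP exceeded every Input in all 3 regions, which held for 0.716% of all genes tested in the SNc, 0.375% in the SNr and 0.6% in the VTA, although the 2 highest VTA Inputs rest on 5 of 8412 and 2 of 3606 UMIs. Averaged over regions, *Bcar1* was 83.0-fold higher in the IP (log2 6.38, SE 0.193, adjusted p = 1.26e-235, edgeR quasi-likelihood test with Benjamini-Hochberg adjustment), the smallest p of 14670 genes and the third largest fold change.

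*Nedd9*, the Cas scaffold first known from neural precursors, was 40.4-fold higher in Cre- midbrain IPs (log2 5.34, SE 0.303, adjusted p = 3.42e-66). Its SNc IPs held 122, 354 and 556 CPM as lowest, median and highest, and the SNc Inputs 0, 0 and 7.88. VTA IPs ran from 204 through 326 to 1437 CPM, with Inputs of 0, 0 and 70.6. SNr IPs ran from 0 through 249 to 770 CPM, with Inputs of 0, 4.17 and 14.9, so that 5 of 6 SNr IPs lay above every Input.

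*Efs*, a Cas scaffold first studied as a Fyn and Src partner, was 17-fold higher in the same IPs (log2 4.09, SE 0.396, adjusted p = 2.82e-22). Its IPs held 60.7, 95.5 and 186 CPM in the SNc, against Inputs of 0, 0 and 11.2. In the VTA the IPs held 87.5, 143 and 308 CPM and the Inputs 0, 0 and 10.8. In the SNr, where IPs held 42.2, 87.5 and 367 CPM and Inputs 7.45, 13.5 and 50.0, 4 of 6 IPs lay above every Input and the groups overlapped.

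The podosome scaffold *Sh3pxd2a* was 26.1-fold higher (log2 4.70, SE 0.301, adjusted p = 5.73e-52). Its SNc IPs held 118, 269 and 626 CPM against Inputs of 0, 12.2 and 32.3. The SNr IPs held 56.1, 310 and 843 CPM against 0, 10.8 and 41, and the VTA IPs 159, 364 and 479 against 0, 0 and 70.6. Its IPs and Inputs did not overlap in any region.

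*Sh3pxd2b*, the paralog without a codon run, lay at 0 CPM in all 6 Cre- VTA IPs and reached no more than 30.3 CPM in the SNc and 23.8 in the SNr. The highest Inputs were 22.4 CPM in the SNc, 12.5 in the SNr and 70.6 in the VTA, the last being 1 UMI in a library of 14170. The log2 fold change was -0.73 (SE 0.520, adjusted p = 0.377).

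Thus 4 of the 5 genes passed the test as higher in Cre- IPs, against 3.91% of all genes tested. Their fold changes ranked 3, 12, 14 and 20 among 14670. Under TMMwsp scaling the median of all genes in this comparison lay at -0.29, and with DESeq2 size factors it lay at 0.11; *Bcar1* then stood at 6.89, *Nedd9* at 5.82, *Sh3pxd2a* at 5.20 and *Efs* at 4.55. Within single regions the 4 genes were also called each time, with log2 fold changes of 5.62 to 7.11 for *Bcar1*, 4.81 to 5.91 for *Nedd9*, 4.09 to 5.89 for *Sh3pxd2a* and 2.33 to 5.06 for *Efs*, against 1.35% of genes called higher in the SNc, 0.641% in the VTA and 1.1% in the SNr. The largest of these rest on few Input UMIs. Pooled over libraries, *Sh3pxd2a* in the VTA was 104 times its Input on 1 Input UMI (95% exact counting interval 18.2 to 4171), *Efs* 93.5 times in the SNc (15.6 to 3811) and 51.5 times in the VTA (8.73 to 2085) on 1 UMI each, and *Nedd9* 90.8 times in the VTA on 2 UMIs (24.7 to 757). Of the 5 genes, 4 had every IP above every Input in the SNc, 4 in the VTA and 2 in the SNr, as the plot of midbrain levels shows.

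**Figure D1:**
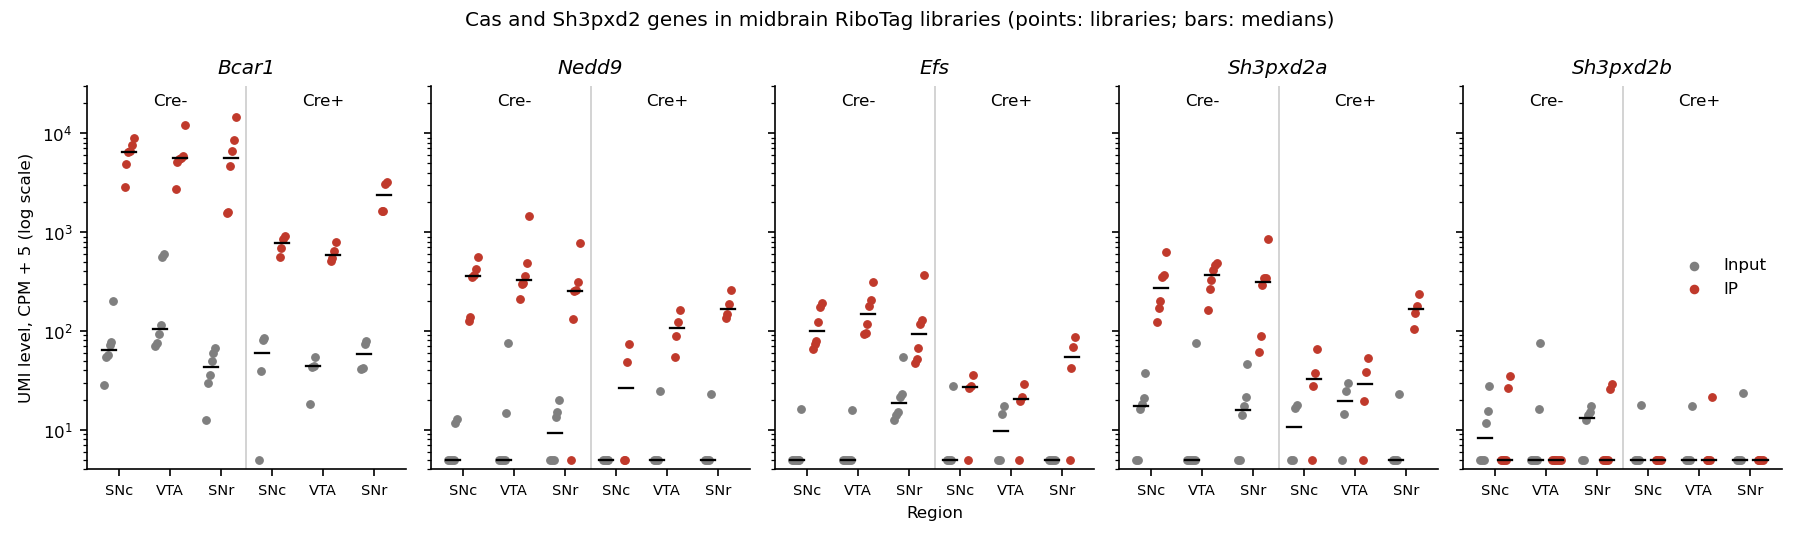
UMI levels of the 5 genes (CPM plus 5, log axis) in the IP and Input libraries of SNc, VTA and SNr from Cre- and Cre+ mice; each point is a library and each bar a median. *Bcar1* IPs lie above the Inputs in all regions of both genotypes and are lower in Cre+ than in Cre- mice, and *Sh3pxd2b* IPs and Inputs overlap.

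The same genes were captured from Cre+ midbrain, where tagged ribosomes are also present, but at lower shares of the library. *Bcar1* IPs held 552, 692, 846 and 904 CPM in the SNc, against Inputs of 0, 34.6, 75.6 and 80.5. In the SNr the IPs held 1614, 1641, 3071 and 3228 CPM against 36.1, 37.6, 68.0 and 74.2, and in the VTA 501, 536, 633 and 783 against 13.1, 37.8, 39.6 and 49.9. No IP overlapped an Input, which held for 2.57% of genes in the SNc, 4.19% in the SNr and 3.12% in the VTA, and the SNr IPs were the highest of the 3 regions. The log2 fold change was 4.26 (SE 0.253, adjusted p = 1.89e-60).

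*Nedd9* IPs of Cre+ mice held 0, 0, 43 and 68.6 CPM in the SNc, where all 4 Inputs were at 0. In the SNr they held 129, 144, 181 and 252 CPM, with 1 Input at 18.1 and the others at 0. The VTA IPs held 50.0, 84.6, 119 and 159 CPM, with 1 Input at 19.8 and the others at 0. IPs and Inputs separated in the SNr and the VTA, and the log2 fold change over regions was 4.27 (SE 0.605, adjusted p = 1.52e-10), on 2 Input UMIs in all.

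*Sh3pxd2a* IPs of Cre+ mice held 98.8, 148, 173 and 231 CPM in the SNr, all above Inputs of 0, 0, 0 and 18.1. In the SNc they held 0, 22.9, 32.3 and 61.3 CPM against 0, 0, 11.5 and 12.6, and in the VTA 0, 14.5, 33.3 and 47.8 against 0, 9.44, 19.8 and 25, with overlap in both regions. The log2 fold change over regions was 2.24 (SE 0.585, adjusted p = 0.0025), and by region it was 4.44 in the SNr (adjusted p = 2.68e-05, on 1 Input UMI), 1.65 in the SNc (0.471) and 0.62 in the VTA (0.798). *Bcar1* was called in each region, at 3.74 in the SNc, 3.85 in the VTA and 5.20 in the SNr, against 1.06%, 0.907% and 1.38% of all genes called higher there.

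*Efs* IPs of Cre+ mice held 0, 36.9, 63.1 and 82.3 CPM in the SNr, where all Inputs were at 0. They held 0, 21.5, 22.9 and 30.7 CPM in the SNc against 0, 0, 0 and 23.0, and 0, 14.5, 16.7 and 23.9 in the VTA against 0, 0, 9.44 and 12.5. The log2 fold change was 2.18 (SE 0.740, adjusted p = 0.0318), a call that was lost when any of 7 libraries was left out (adjusted p up to 0.0656). *Sh3pxd2b* was at 0 in all Cre+ IPs but 1 in the VTA, at 16.7 CPM, and its log2 fold change was -1.02 (SE 0.683, adjusted p = 0.399). In Cre+ midbrain 4 of the 5 genes were thus higher in the IP, against 3.71% of all genes.

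Comparison of the genotypes sets the share of each mRNA in IPs with tagged mDA ribosomes beside its share in IPs without them. The share was lower in Cre+ than in Cre- IPs for *Bcar1* (log2 -2.49, SE 0.166, adjusted p = 5.19e-48), *Sh3pxd2a* (-2.62, SE 0.287, 1.42e-17), *Efs* (-2.32, SE 0.382, 7.27e-08) and *Nedd9* (-2.05, SE 0.249, 2.56e-14), while *Sh3pxd2b* was at -1.0 with an adjusted p of 1. These are 4 of 5 genes called lower, against 6.12% of all genes. With the Inputs included, the genotype difference in IP over Input passed the test for *Bcar1* alone (-2.11, SE 0.395, adjusted p = 7.72e-06; 2.52% of all genes were called lower). For *Sh3pxd2a* it was -2.47 (SE 1.03, adjusted p = 0.134), for *Efs* -1.91 and for *Nedd9* -1.07. Their Inputs held few UMIs, and these differences were not detectable at this depth by that test.

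By region, the genotype difference was -2.65 for *Bcar1* in the SNc (adjusted p = 0.00513; 0.273% of genes were called lower there), -1.78 in the VTA (0.220) and -1.91 in the SNr (0.153, with 0.184% called lower). For *Sh3pxd2a* it was -5.27 in the VTA (adjusted p = 0.0226; 1.29% called lower), a size that rests on Inputs of 1 UMI in Cre- and 4 UMIs in Cre+ mice, -2.43 in the SNc (0.561) and 0.30 in the SNr (0.975). Endothelial markers also differed between the IPs of these groups. Their summed level in Cre- IPs had a range of 139–512 CPM in the SNc, 123–1313 in the VTA and 257–953 in the SNr, against 68.6–142, 0–56.4 and 296–442 in Cre+ IPs. In Cre- midbrain 3 of 10 endothelial markers were higher in the IP and *Tek* was at 0 in the SNc IPs and *Emcn* in the VTA IPs. The part of these cells in the Cas and Sh3pxd2 values was not tested.

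Full-length libraries of Cre+ mice covered the same regions with many more counts. These are reads not collapsed by UMI, so the depths are in unlike units. In every region all IPs lay above all Inputs for *Bcar1*, *Nedd9*, *Efs* and *Sh3pxd2a*, and below them for *Sh3pxd2b*. Every IP lay above every Input for 32.8% of all genes in the SNc, 36.4% in the VTA and 30.6% in the SNr. The share with every IP below every Input was not counted. *Bcar1* IPs held 1837, 2662 and 2893 CPM in the SNc, 2284, 2287 and 2334 in the VTA, and 5312, 5460 and 7423 in the SNr. The 9 Inputs lay between 37.4 and 49.5 CPM. The log2 fold change was 5.89 (SE 0.101, adjusted p = 4.36e-23), the smallest p of 17235 genes.

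*Nedd9* IPs held 96.0, 118 and 263 CPM in the SNc, 437, 443 and 476 in the VTA, and 565, 577 and 968 in the SNr, against 10.5 to 18.4 in the Inputs (log2 4.43, SE 0.174, adjusted p = 2.07e-16). The SNc IPs were the lowest and did not overlap those of the other regions. *Efs* IPs held 11.4, 21.3 and 28.4 CPM in the SNc, 16.9, 25.5 and 33.7 in the VTA, and 54.0, 60.8 and 66.7 in the SNr, against 3.78 to 9.10 in the Inputs (1.96, SE 0.189, 3.00e-09). Its SNc and VTA IPs overlapped, and the SNr IPs lay above both. The share of all genes whose regions lay apart among IPs in this way was not counted.

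*Sh3pxd2a* IPs held 45.6, 74.5 and 136 CPM in the SNc, 184, 202 and 237 in the VTA, and 680, 733 and 1050 in the SNr. Its Inputs held 33.5, 36.4 and 41 CPM in the SNc, 26.6, 34.4 and 40.5 in the VTA, and 47.1, 53.8 and 77.6 in the SNr. The 3 regions did not overlap among IPs, for which a share over all genes was again not counted. The log2 fold change was 2.21 (SE 0.158, adjusted p = 1.55e-11).

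*Sh3pxd2b* went the other way, with IPs of 8.58, 10.4 and 13.1 CPM in the SNc, 3.8, 7.48 and 10.2 in the VTA and 3.72, 13 and 27.6 in the SNr. All lay below its Inputs, which held 30.9 to 41 CPM in every region. Its log2 fold change was -2.06 (SE 0.221, adjusted p = 2.02e-08). Hence 4 genes were called higher and 1 lower, where 25.3% and 26.1% of all genes were, so the directions say little by themselves and the sizes carry the comparison. *Bcar1* ranked 13 by fold change.

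Per kilobase of exon, a scale that allows for gene length in full-length libraries, *Bcar1* stood at 542 CPM per kb in SNc IPs, 506 in VTA IPs and 1334 in SNr IPs. *Nedd9* came next with 25, 70.9 and 110, followed by *Sh3pxd2a* with 7.37, 17.9 and 70.8 and *Efs* with 6.99, 8.70 and 20.7. In Inputs the spread was narrower, from 9.05 to 10.1 for *Bcar1* down to 1.75 to 2.55 for *Nedd9* and 1.91 to 2.66 for *Efs*, with *Sh3pxd2b* between them at 3.36 to 3.85. *Nedd9* and *Efs* thus lay below *Sh3pxd2b* in Inputs and above it in IPs.

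**Figure D2:**
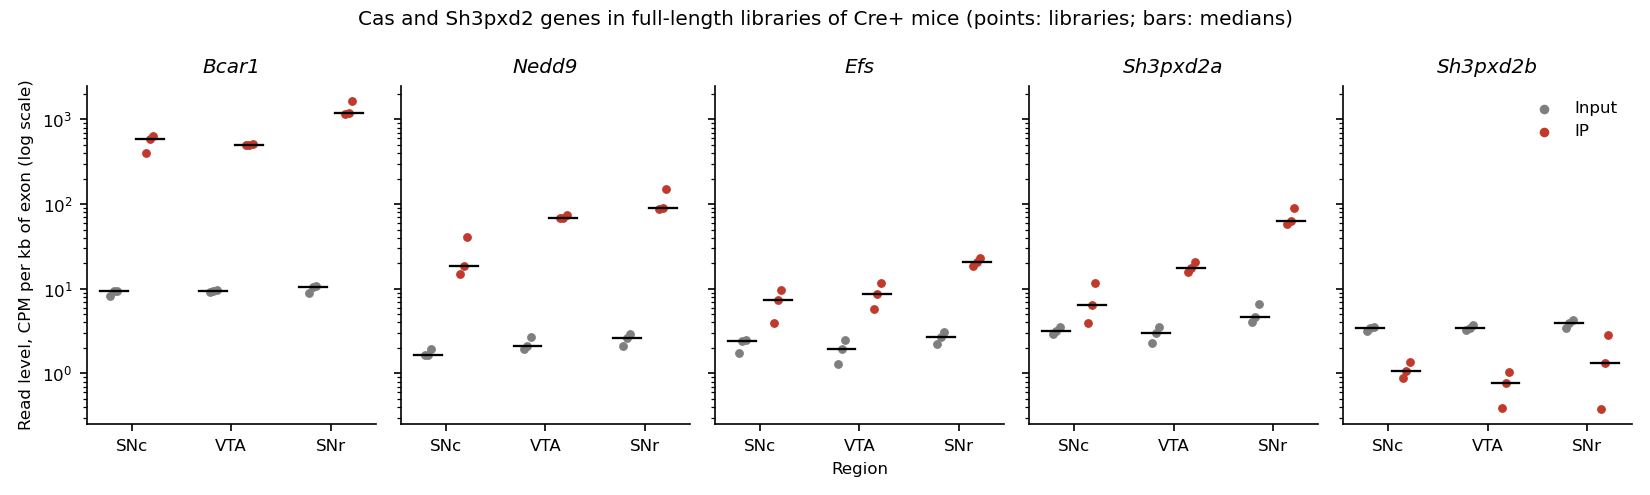
Read levels of the 5 genes (CPM per kb of exon, log axis) in full-length libraries of Cre+ SNc, VTA and SNr; each point is a library and each bar a median of 3. IP and Input do not overlap for any gene in any region, *Sh3pxd2b* IPs lie below their Inputs, and SNr IPs of *Bcar1* and *Sh3pxd2a* lie above those of the other regions.

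The size of the capture differed between regions for 3 of the 5 genes, against 11.8% of all genes. *Bcar1* IP over Input was 5.60 in the SNc, 5.44 in the VTA and 6.64 in the SNr on the log2 scale (adjusted p = 0.000498 for any difference between regions), so that the SNc and the VTA were close and the SNr stood above. *Sh3pxd2a* rose from 0.92 in the SNc through 2.34 in the VTA to 3.37 in the SNr (adjusted p = 0.000357). *Nedd9* stood at 3.55, 4.71 and 5.04 (adjusted p = 0.0262), and its call was lost without SNc Input replicate 1, SNc IP replicate 2 or SNc IP replicate 3 (adjusted p up to 0.0760). *Efs* stood at 1.36, 1.96 and 2.57 (0.167) and *Sh3pxd2b* at -1.92, -2.51 and -1.75 (0.590). Endothelial markers in these IPs summed to 58.0–116 CPM in the SNc, 14.6–54.6 in the VTA and 232–292 in the SNr, with none of the 10 at 0 in a group, and mural and fibroblast markers to 54.0–111, 4.74–47.8 and 257–350. Their part in the regional differences was not tested.

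Ventral midbrain synaptosomes gave a narrower picture that rested mainly on *Bcar1*. Its Cre- IPs (n = 6) held 1654, 1881 and 2540 CPM as lowest, median and highest, against 127, 229 and 282 in 12 Inputs. The Cre+ IPs (n = 8) held 474, 807 and 1260 CPM, against 78.8, 180 and 263 in 16 Inputs. The authors give 6 Cre- and 8 Cre+ mice for these IPs, so the Inputs may repeat mice. Each Input was fitted as a separate sample, and the standard errors and p-values may therefore be too small. IP and Input did not overlap in either genotype, which held for 0.17% of genes in Cre- and 0.309% in Cre+ mice, with log2 fold changes of 2.94 in Cre- (SE 0.171, adjusted p = 5.29e-29, the smallest of 12960) and 2.20 in Cre+ mice (SE 0.144, 8.64e-26).

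In Cre- synaptosomes *Bcar1* was the one member called, against 0.856% of all genes. *Sh3pxd2a* stood at 2.12 (SE 0.698, adjusted p = 0.0896), *Nedd9* at 1.87 (SE 0.792, 0.269) and *Efs* at 0.80 (SE 0.797, 0.719), and their IPs overlapped their Inputs. In Cre+ synaptosomes 3 members were called higher, against 6.34% of all genes, with *Nedd9* at 2.09 (SE 0.532, adjusted p = 0.00242) and *Sh3pxd2a* at 1.57 (SE 0.461, 0.0112) beside *Bcar1*. *Efs* stood at 1.70 (SE 0.630, 0.0617) and *Sh3pxd2b* at -1.34 (0.308). *Sh3pxd2a* IPs of Cre+ synaptosomes held 27.1, 45.9 and 93.2 CPM against 0, 19 and 35.6, and *Nedd9* IPs 0, 43.6 and 72.4 against 0, 0 and 54.8. The genotype difference for *Bcar1* was -0.74 (SE 0.232, adjusted p = 0.0959) with TMMwsp and -1.04 (0.0026) with size factors, so that whether it passed depended on the scaling (0.355% of all genes were called lower with TMMwsp). Summed endothelial markers in the Cre- IPs had a range of 0–438 CPM, against 0–54.2 in the Inputs. Dopamine neuron markers, of which 3 of 10 were called higher in these Cre- IPs (median log2 fold change 0.51 beside -0.31 over all genes), summed to 3651–5807 CPM in the IPs and 1936–3342 in the Inputs, with all 10 detected. The part of either in the *Bcar1* value was not tested.

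Striatal synaptosomes held enough UMIs to test *Bcar1* only. Each genotype had 4 IPs and 12 Inputs, and these Inputs may repeat mice as well. In Cre+ mice its IPs ran from 236 through 448 to 590 CPM and its Inputs from 205 through 389 to 1904, with overlap, and the log2 fold change was 0.20 (SE 0.397, adjusted p = 0.886, where 0.314% of genes were called higher). Its 95% interval, from the SE, ran from -0.58 to 0.97. In Cre- mice, whose values belong to the basis of the choice, the 4 IPs held a mean of 499 CPM and the log2 fold change was 1.23. The plot of fold changes sets all 5 experiments beside each other.

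**Figure D3:**
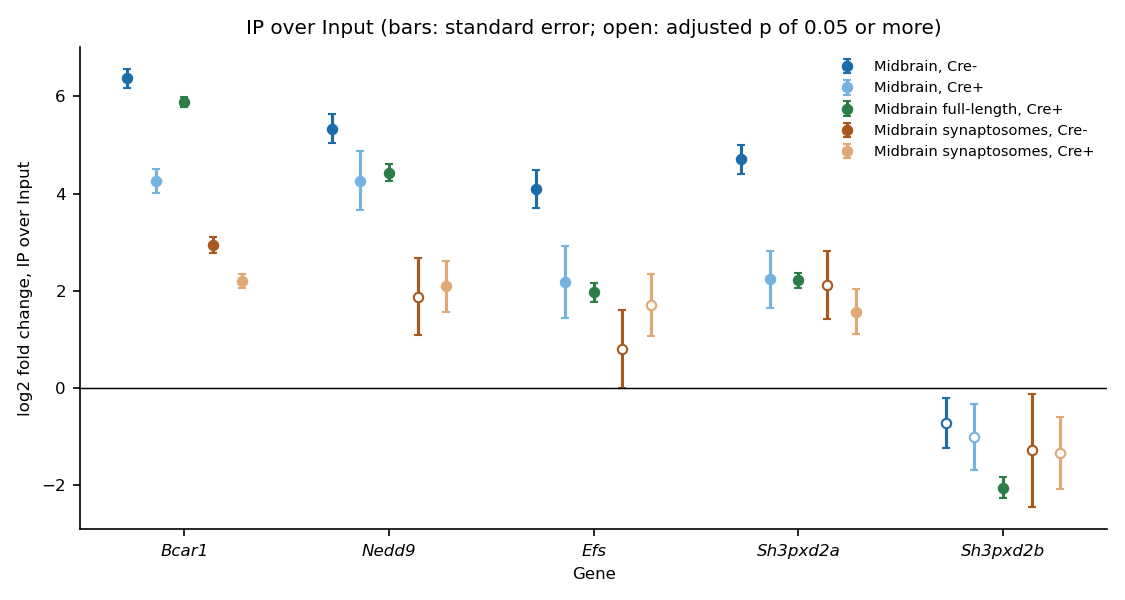
Log2 fold change of IP over Input for each gene in Cre- and Cre+ midbrain, Cre- and Cre+ midbrain synaptosomes and full-length libraries, with bars of 1 standard error; open points have an adjusted p of 0.05 or more. *Bcar1* is the highest in each experiment except Cre+ midbrain, where *Nedd9* stands at 4.27 and *Bcar1* at 4.26, and *Sh3pxd2b* lies below 0 in all.

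In bulk striatum, whose IP over Input values chose the genes, *Bcar1* IPs ran from 86.7 through a median of 692 to 1971 CPM in Cre- mice (n = 34) and from 227 through 802 to 2686 in Cre+ mice (n = 34). Its Inputs (n = 35 each) had medians of 27.5 CPM in both genotypes. *Sh3pxd2a* IPs ran from 74.8 through 573 to 5393 CPM in Cre- and from 0 through 650 to 4916 in Cre+ mice, with Input medians of 27.5 and 32.7. In this tissue *Sh3pxd2a* had the larger log2 fold change, 4.94 in Cre- and 4.83 in Cre+ mice, next to 4.20 and 4.65 for *Bcar1*. *Nedd9* stood at 3.48 and 3.46 and *Efs* at 2.12 and 2.04. IPs above every Input of their genotype numbered 32 of 34 Cre- and 34 of 34 Cre+ samples for *Bcar1*, 32 and 33 for *Sh3pxd2a*, 23 and 27 for *Nedd9*, 13 and 17 for *Efs*, and 2 and 2 for *Sh3pxd2b*.

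Striatal capture by age comes from the libraries that chose the genes, so it is described here with no test. For *Sh3pxd2a* the log2 fold change of IP over Input, over both genotypes, stood at 3.32 in P0 mice, 4.56 in P7, 6.24 in P14, 6.08 in P21, 4.52 in P31, 3.19 in P90 and 2.75 in 10–14-month mice. For *Bcar1* it was 4.05, 5.23, 4.46, 4.84, 6.02, 3.54 and 2.68 at the same ages, of which the 6.02 of P31 rests on 4 Input UMIs over 4 samples. Both genes had their lowest value in the oldest mice.

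Ages and library plates overlapped only in part. On plate BH001 the *Sh3pxd2a* IPs had medians of 611 CPM at P0, 868 at P7, 3769 at P14 and 4906 at P21. On plate PB003 and its repeat the medians were 75.4, 487, 530 and 941 CPM at these ages, then 676 at P31 and 347 at P90, and plate PB011 held the oldest mice at 158. On both plates that hold these ages, *Sh3pxd2a* IPs had a higher median at P21 than at P0. The plates differed several-fold at P0, P14 and P21. *Bcar1* IPs had medians between 661 and 783 CPM at all 4 ages of plate BH001, and between 227 CPM at P90 and 1971 at P21 on plate PB003. The 10–14-month mice and their plate cannot be told apart.

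The genotypes overlapped for *Bcar1* up to P31 and lay apart in adult striatum. At 10–14 months the 4 Cre+ IPs held 531, 553, 793 and 833 CPM, and the 6 Cre- IPs 90.2, 251 and 363 as lowest, median and highest. At P90 the Cre+ IPs held 227, 295 and 441 CPM and the Cre- IPs 86.7 and 184. In these adult groups Cre+ IPs were thus higher, whereas in the midbrain at 10–14 months Cre+ IPs were lower. The striatal Cre- IPs held only 4 to 15 *Bcar1* UMIs each at 10–14 months, and 2 and 6 at P90. How many other genes lay apart by genotype in groups this small was not counted, and the striatal difference was not tested here. The paper tested genotype and genotype:fraction in striatum over ages and at each age, and reports no significant gene. *Sh3pxd2a* IPs of 10–14-month striatum overlapped between genotypes, at 104 to 297 CPM in Cre+ and 90.7 to 277 in Cre- mice.

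**Figure D4:**
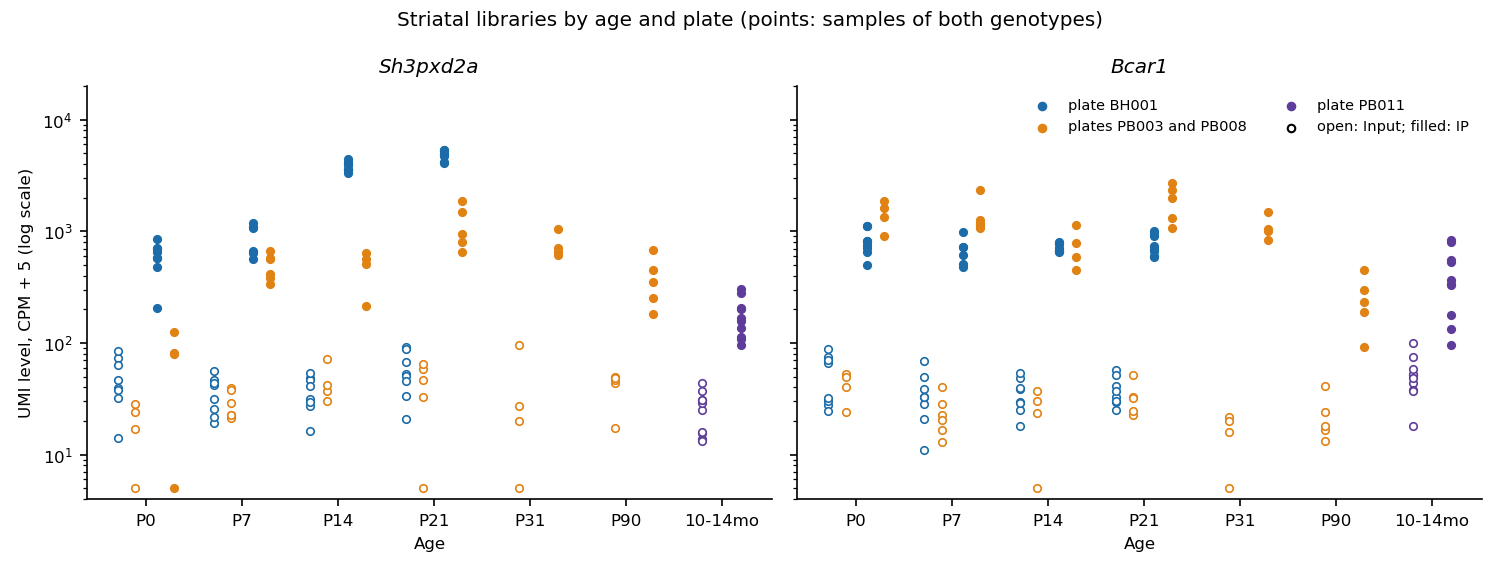
UMI levels (CPM plus 5, log axis) of *Bcar1* and *Sh3pxd2a* by age in striatal IP (filled) and Input (open) samples of both genotypes, colored by library plate. *Sh3pxd2a* IPs of plate BH001 have medians of 3769 CPM at P14 and 4906 at P21, while its Inputs stay low at all ages.

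Striatal Inputs, which measure the tissue mRNA, changed with age for 3 of the 5 genes, against 54.8% of all genes, so that a change here was common. At P90 compared with P0 the log2 fold change was -1.05 for *Bcar1* (adjusted p over all ages 0.000817), -1.61 for *Sh3pxd2b* (0.000226) and 0.23 for *Sh3pxd2a* (0.0479). The *Sh3pxd2a* call is weak, since it was kept in 4 of 13 fits that left out 1 sample (adjusted p up to 0.0688) and in 3 of 9 other settings (up to 0.132). *Nedd9* (0.401) and *Efs* (0.460) did not pass. Within plate BH001, which holds only P0, P7, P14 and P21, none of the 5 genes passed.

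Genes that act with these scaffolds showed no capture of comparable size. There were 63 in 7 lists. These were Src and adhesion kinases, Cas adaptors, exchange factors and GTPases, phosphatases, focal adhesion genes, podosome genes and NADPH oxidase genes. In Cre- midbrain 54 were tested, and edgeR called 0 higher (1 at an unadjusted p under 0.05) and 7 lower. The median log2 fold change of the 54 was -0.32 beside -0.29 over all genes, of which 3.91% were called higher and 13.1% lower. The highest, the Src-family kinase *Lyn*, stood at 1.02 (adjusted p = 0.195). Among the lower genes were *Zyx*, a focal adhesion protein (-2.52, SE 0.552, adjusted p = 0.000122), the adaptors *Grb2* (-1.03, 0.00103) and *Crk* (-0.95, 0.0280), the phosphatases *Ptpn11* (-0.89, 0.000253) and *Ptpra* (-1.02, 0.00136) and *Actr3* of the Arp complex (-0.99, 0.0142). With size factors *Zyx* passed (0.00342) and the other 5 lower genes named here did not (0.109 to 0.342), while 3 genes became called higher. These were *Cttn*, *Adam15* and the Rac exchange factor gene *Dock3*, which went from 0.78 (adjusted p = 0.0732) to 1.24 (0.00209).

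In Cre+ midbrain 1 of these partner genes was higher and 7 were lower, the former being *Cttn*, which encodes the actin-binding Src substrate cortactin (log2 1.27), against 3.71% and 8.21% of all genes. Full-length libraries tested 60 of the 63, of which 8 were higher and 37 lower, with a median of -0.50 beside 0.01 over all genes, where 25.3% of all genes were called higher and 26.1% lower. The 8 were *Adam19* (0.91), *Arpc2*, *Bcar3*, *Cttn*, *Grb2* (0.33), *Itgb1*, *Nck1* and *Tln2*, all far below the fold changes of the 4 captured scaffolds.

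Other genes with the codon run were compared with the members in Cre- midbrain. Of 36 tested genes that hold a run, 7 were higher and 1 lower. Leaving out the 4 members, 3 of 32 were higher and 1 lower, with a median log2 fold change of -0.35 beside -0.29 over the 12056 tested genes that have a coding sequence (3.91% of all genes tested were called higher). The 3 were *Inpp5k*, an inositol polyphosphate phosphatase (1.89, SE 0.473, adjusted p = 0.00104), *Nprl2* of the GATOR complex (1.29, SE 0.439, 0.0247) and the mitotic checkpoint gene *Bub3* (1.08, SE 0.259, 0.000618), and the lower gene was the zinc finger gene *Zfp91* (-1.14, SE 0.220, 8.26e-06). The adhesion genes *Dscam* (-1.03, 0.0563) and *Cdh4* (-1.38, 0.0926) did not pass. In Cre+ midbrain edgeR called 0 of the 32 higher (2 at an unadjusted p under 0.05, and 3 with size factors) and 3 lower, and in full-length libraries 10 of 35 were higher and 14 lower, where 25.3% and 26.1% of all genes were.

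**Figure D5:**
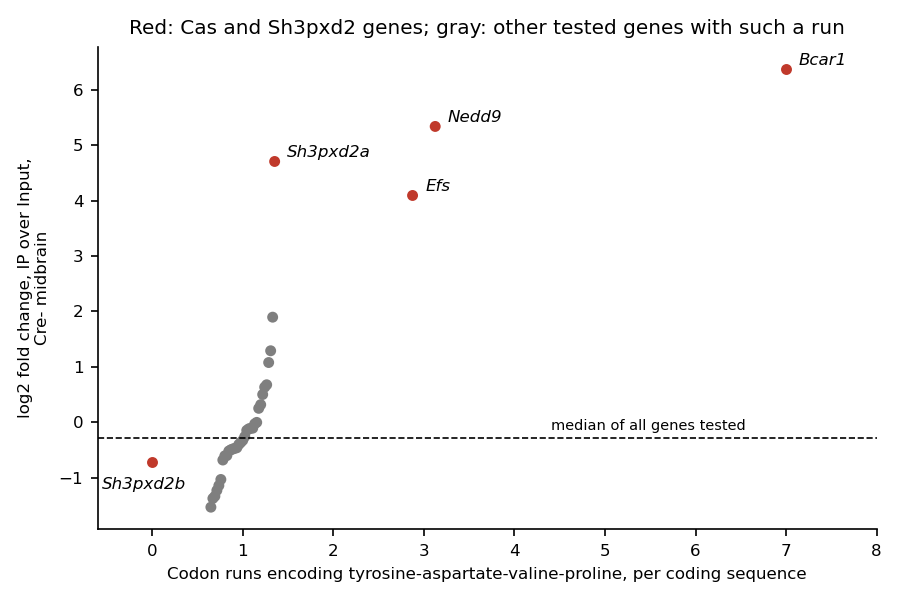
Log2 fold change of IP over Input in Cre- midbrain against the number of codon runs for tyrosine-aspartate-valine-proline in each gene's coding sequence; red points are the Cas and Sh3pxd2 genes, gray points other tested genes with a run, and points are spread sideways for legibility. *Bcar1* with 7 runs stands at 6.38, *Nedd9* and *Efs* with 3 at 5.34 and 4.09 and *Sh3pxd2a* with 1 at 4.70, while the other genes with 1 run scatter around the median of all genes.

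Runs of other residues along the epitope were searched in the same way, each window taking 4 residues of it. Together the windows were found in 284 genes (1.32% of those with a coding sequence), of which 194 besides the members were tested in Cre- midbrain, with 6 higher and 20 lower and a median of -0.20 (16 higher and 7 lower with size factors). The looser motif that the Crk SH2 domain can bind when phosphorylated, a tyrosine with a proline 3 residues after it, occurs 16 times in *Bcar1*, 14 in *Nedd9*, 8 in *Efs*, 2 in *Sh3pxd2a* and 0 in *Sh3pxd2b*, and at least once in 47.7% of genes.

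Over 12 IP and Input contrasts, the genes whose log2 fold changes most resembled the mean of the tested members were *Fry* (Pearson r = 0.930), *Yeats2* (0.890), *Mrpl3* (0.866), *Acaca* (0.862) and the transcript *Gm26870* (0.839), among 3270 genes. The contrasts share libraries, those of striatal synaptosomes rest on *Bcar1* alone, and the r is a description. The resemblance is in pattern more than in size, because *Fry* ranged from -1.15 to 1.44 and *Mrpl3* from -0.48 to 0.71 on the log2 scale, whereas *Yeats2* ranged from 0.18 to 6.63, *Acaca* from -0.03 to 4.99 and *Gm26870* from 1.6 to 7.31.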

How the data were processed

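The deposited values were counts per gene, which the authors had not normalized. For UMI libraries the authors aligned reads to GRCm38 with STAR and GENCODE vM10 and collapsed UMIs. For full-length libraries the submitters' processing notes name Bowtie2, STAR 2.6.7a, featureCounts 1.6 and GRCm38.p6. The 3′-end reads of the UMI libraries carry no length bias, whereas full-length counts grow with exon length.

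The 56 repeat wells of striatal samples were summed with their partners. Groups came from sample labels. Each of the 394 samples was read, of which 376 are UMI and 18 full-length libraries. A UMI comparison kept genes that reached 10 UMIs in total and used TMMwsp scaling. The full-length comparison used filterByExpr and TMM. The quasi-likelihood test of edgeR was applied to IP over Input, genotype, region and age over all genes, with Benjamini-Hochberg adjustment at 0.05. A standard error was taken as the size of the log2 fold change over the root of its F value. The planned test of striatal capture by age is not reported, because the same libraries chose the genes. The members and gene lists were chosen with earlier results of these data known. Named partner genes are the 2 with the smallest p per list, named genes with a codon run the 6 outside the members with the most runs, ties taken by p, and genes of like pattern the 5 with the highest r. The partner genes named in full-length libraries, Cre+ midbrain or by size factors alone were chosen after their values were seen. Beside the scaffolds, 10 marker lists were summed, from which only those that moved with a result are given.

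Coding sequences came from GENCODE vM21, translated here, since protein records of RefSeq were not used here. A run is 4 residues and each window shows 30 bases. Identity was counted over aligned residues (biotite 1.4.0).

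In counts simulated from the midbrain libraries with 200 of 14250 genes changed, 83% of 4-fold and 37% of 2-fold changes were recovered, and the median of unchanged genes was -0.28 under TMMwsp. For 15772 full-length genes the shares were 100% and 82%, and for 12518 midbrain synaptosome genes 80% and 27%. Alternatives were size factors, total counts, DESeq2, filterByExpr, no library under 10000 UMIs, single plates and leaving out libraries. Software was Python 3.11.15 with pandas 2.3.3, numpy 2.4.6, matplotlib 3.10.9 and scipy 1.17.1, and R 4.3.3 with DESeq2 1.42.0 and edgeR 4.0.16.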

Additional observations from a re-analysis of the deposited data

Results flagged for a closer look

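Single libraries stood apart from the other 5 of their group in 7 of 58 groups by Dixon's test on CPM. Chance alone gives about 1 in 20 only for normally spread values, which CPM on few UMIs need not be. *Bcar1* was 11990 CPM in VTA IP Cre- replicate 1 (701 of 58465 UMIs), against 2704 to 5856 in the others, and *Nedd9* was 1437 CPM in the same library, against 204 to 482. Without that library the Cre- log2 fold change was 6.25 for *Bcar1* and 5.06 for *Nedd9*, and the genotype difference of *Bcar1* was -1.99 (adjusted p = 3.13e-05, edgeR). *Sh3pxd2a* was 843 CPM in SNr IP Cre- replicate 1 (23 UMIs), against 56.1 to 339. *Bcar1* was 194 CPM in SNc Input Cre- replicate 2, a value of 6 UMIs, against 23.5 to 72.8. In striatum *Bcar1* was 1142 CPM in IP Cre+ P14 replicate 5, against 662 to 781, and 1971 CPM in IP Cre- P21 replicate 6, against 590 to 1059. *Sh3pxd2a* was 378 CPM in IP Cre+ P7 replicate 5, against 561 to 665, on 9 UMIs. These striatal libraries were all on plate PB003 and its repeat, in groups that also held libraries of plate BH001.

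Capture differed between groups by a test of the difference itself in 4 cases. These were *Bcar1* between genotypes in the midbrain (adjusted p = 7.72e-06), and *Bcar1* (0.000498), *Nedd9* (0.0262) and *Sh3pxd2a* (0.000357) between regions in full-length libraries.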

How the results depend on the processing

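No paired analysis was possible because the labels carry no replicate numbers that link IP, Input, regions or genotypes. Of the counts of members called under the alternatives, 218 were equal to the main count or within 1.5 times of it, and 11 moved. Of the values of single genes, 1013 kept their direction and side of the threshold. A further 27 no longer passed, 9 newly passed and 5 changed sign. The genotype difference in the midbrain called 1 member lower, 3 with the DESeq2 test and 2 with filterByExpr. In midbrain synaptosomes it called 0, and 1 with size factors, total counts, the DESeq2 test or filterByExpr. Cre- synaptosomes called 1 member, and 2 with size factors or the DESeq2 test. Cre+ synaptosomes called 3, and 1 with filterByExpr, which tested 1. Striatal Inputs called 3 members by age, 1 with filterByExpr and 0 within plate BH001. The fit without VTA IP Cre- replicate 1 was chosen after seeing the data. Alternatives for striatal capture by age are not given, since it is described without a test. Leaving out 1 library at a time gave 3 to 4 members in Cre+ midbrain, 2 to 3 for regions in full-length libraries and 2 to 3 for striatal Inputs by age. For *Sh3pxd2b* the midbrain genotype difference changed sign without SNc Input Cre+ replicate 4 (0.20), VTA Input Cre+ replicate 2 (0.19) or SNr Input Cre+ replicate 3 (0.31), over a range of -0.85 to 0.31, and for *Nedd9* in midbrain synaptosomes it became -0.065 with size factors and -0.066 with total counts. Cre- midbrain called 573 genes higher and 1916 lower, and 1349 and 613 with size factors. The genotype difference there called 680 and 369, and 410 and 789 with size factors. Full-length libraries called 4366 higher and 4494 lower, and 6757 and 2874 by total counts. Inputs by age called 10096 genes and 4750 within plate BH001. The cause was not tested. Low Input counts limit *Nedd9*, *Efs* and *Sh3pxd2b* in UMI libraries, and midbrain synaptosomes and striatum held no library under 10000 UMIs, so that alternative was not run there.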

Other observations

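The sorted synaptosomes held few UMIs of these mRNAs. *Bcar1* had 0 UMIs in the 6 DAT_EGFP libraries sorted by fluorescence and 5 UMIs over the 18 libraries sorted as small particles from the same kind of mice. *Sh3pxd2a* had 1 UMI and 39 UMIs in the same groups. The former libraries held 13072 to 33829 UMIs each and the latter 22978 to 103476, so these counts are not levels. In striatal synaptosome Inputs of Cre+ mice *Cass4*, the remaining Cas family gene, had 8 UMIs, all in replicate 6 (349 CPM), and the other 11 libraries had 0.

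Where an Input group was at 0 throughout, the fold in Cre+ midbrain is a lower bound against 3 UMIs over the group. *Nedd9* in SNc IPs was then at least 3.05-fold higher and *Efs* in SNr IPs at least 3.54-fold higher.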
